A study of Homo sapiens with 6 samples.

Results

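The genes described are 10 members of the BCL2 family, which set the threshold for the mitochondrial pathway of apoptosis: BCL2, BCL2L1, MCL1, BAX, BAK1, BCL2L11, BID, BAD, BBC3 and PMAIP1. They were taken from the 20037 protein-coding genes of the annotation, and a peak was assigned to a member when it touched the gene body or the 3 kb on either side. By this rule all 10 members had at least 1 peak, and 65 of the 81170 peaks in the 4 peak lists belonged to them. The rule lists genes with a shared function and uses no measured value, but the list was drawn up with earlier results of these data known.

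The peaks come from chromatin immunoprecipitation followed by sequencing (ChIP-seq) in K562, a human chronic myelogenous leukemia cell line. All cells overexpressed Flag-PLAG1-S and USF2 together, and 2 clones of these cells, #4 and #5, were used. In each clone PLAG1-S was pulled down with an anti-Flag antibody and USF2 with an anti-USF2 antibody, which gave 2 libraries per factor, and an input library was sequenced from each clone. The labels give 42.5 M reads per immunoprecipitated library and 55 M per input, single-end, 50 bp. Each clone is a single line. Cells without the transgenes are not among the samples, so that binding by endogenous and by overexpressed USF2 cannot be told apart, and RNA was not measured in these samples. With 2 libraries per factor no test was run between samples, and each value is given for both clones instead.

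Proteins of the BCL2 family act at the outer membrane of the mitochondrion. The effectors BAX and BAK1 form pores there that release cytochrome c, the guardians BCL2, BCL2L1 (BCL-xL) and MCL1 hold the effectors in check, and the BH3-only proteins BCL2L11 (BIM), BID, BAD, BBC3 (PUMA) and PMAIP1 (NOXA) engage the guardians, or the effectors, in response to stress. The family is best known in blood cells, where the balance between its members decides whether a cell survives. USF2 is a basic helix-loop-helix leucine zipper factor that binds the E-box CACGTG, and PLAG1 is a zinc finger factor that binds G-rich DNA.

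The sequence just upstream of the annotated start differed sharply between the effectors. The 250 bases before the start of BAX (chr19:48954625-48954874, plus strand) held 4 copies of the E-box, whereas the 250 bases before the start of BAK1 (chr6:33580277-33580526, minus strand) held none. Both are shown 5′ to 3′ from RefSeq on GRCh38.p14, with every E-box in capitals, because BAX carried the strongest peaks of the family and BAK1 had no peak over its start.

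BAX: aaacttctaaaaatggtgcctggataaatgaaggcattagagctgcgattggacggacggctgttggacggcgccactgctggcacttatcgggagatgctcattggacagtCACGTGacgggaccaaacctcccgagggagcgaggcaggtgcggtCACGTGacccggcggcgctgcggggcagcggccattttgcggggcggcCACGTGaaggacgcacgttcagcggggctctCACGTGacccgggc
BAK1: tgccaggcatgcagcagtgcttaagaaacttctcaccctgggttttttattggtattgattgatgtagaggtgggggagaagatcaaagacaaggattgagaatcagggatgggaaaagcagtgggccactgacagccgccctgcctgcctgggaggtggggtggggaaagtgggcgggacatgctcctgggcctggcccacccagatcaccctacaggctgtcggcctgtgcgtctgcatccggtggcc

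Of the other members, only BID and BBC3 had an E-box in a promoter window, which runs from 250 bases before to 50 bases after an annotated start. Windows were given for 9 of the 10 members, all but MCL1. The E-box of BID (chr22:17774072-17774101, minus strand, with 12 bases on each side) lay under peaks of both factors, and that of BBC3 (chr19:47232882-47232911, minus strand, with 12 bases on each side) under none. They are shown for this contrast, again with the E-box in capitals.

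BID: ttgtgtcctctcCACGTGgcctggggattc
BBC3: atggggagatttCACGTGagatatagatta

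The 4 lists differ in length, with 37574 and 29889 PLAG1-S peaks in clones 4 and 5, and 9338 and 4369 USF2 peaks. At the members there were 25 peaks of PLAG1-S in clone 4 and 29 in clone 5, and 8 and 3 of USF2. The lower USF2 counts are to be read beside the shorter USF2 lists. PLAG1-S peaks were listed at 9 of 10 members in clone 4, all but PMAIP1, and at 9 of 10 in clone 5, all but BAK1. The same rule gave a PLAG1-S peak to 64% of all protein-coding genes in clone 4 and 58.3% in clone 5. USF2 peaks were listed at 4 members in clone 4 (BAX, BID, BAD and BBC3) and at 3 in clone 5 (MCL1, BAX and BBC3), against 25.3% and 13.6% of all protein-coding genes. The members range in length from 4310 bp (PMAIP1) to 196745 bp (BCL2), and a longer gene offers more room for a peak.

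Peaks of a factor that shared 1 bp or more between the clones were called reproducible and were counted with their clone 4 interval. By this definition 8 of the 10 members had a reproducible PLAG1-S peak, against 52% of all protein-coding genes. These were the 3 guardians, BAX of the 2 effectors, and 4 of the 5 BH3-only genes (BCL2L11, BID, BAD and BBC3). A reproducible USF2 peak was found at 2 members, BAX and BBC3, against 10.3% of all protein-coding genes. Both of them were also co-bound, meaning that the edges of a reproducible PLAG1-S peak lay within 100 bp of a reproducible USF2 peak, which held for 9.98% of all protein-coding genes. The counts of USF2 and co-bound members rest on 2 genes and are too small to be read against these shares.

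The peaks were then restricted to the neighbourhood of a gene start, which lowered the shares over all protein-coding genes for both factors. Within 1 kb of an annotated start, or of either gene end where no start was given (MCL1), 6 members had a reproducible PLAG1-S peak (BCL2, BCL2L1, MCL1, BAX, BID and BBC3), against 40.5% of all protein-coding genes. For USF2 and for co-binding, BAX and BBC3 were again the 2 members found, against 7.33% and 7.25%. At BBC3 the clone 4 peaks came within 1 kb of the start only by their edges. Their summits lay 1088 bp (PLAG1-S) and 1073 bp (USF2) downstream of it, and the clone 5 USF2 peak lay wholly beyond 1 kb. The start-side peaks of BCL2L11 and BAD were each seen in 1 clone only.

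**Figure D1:**
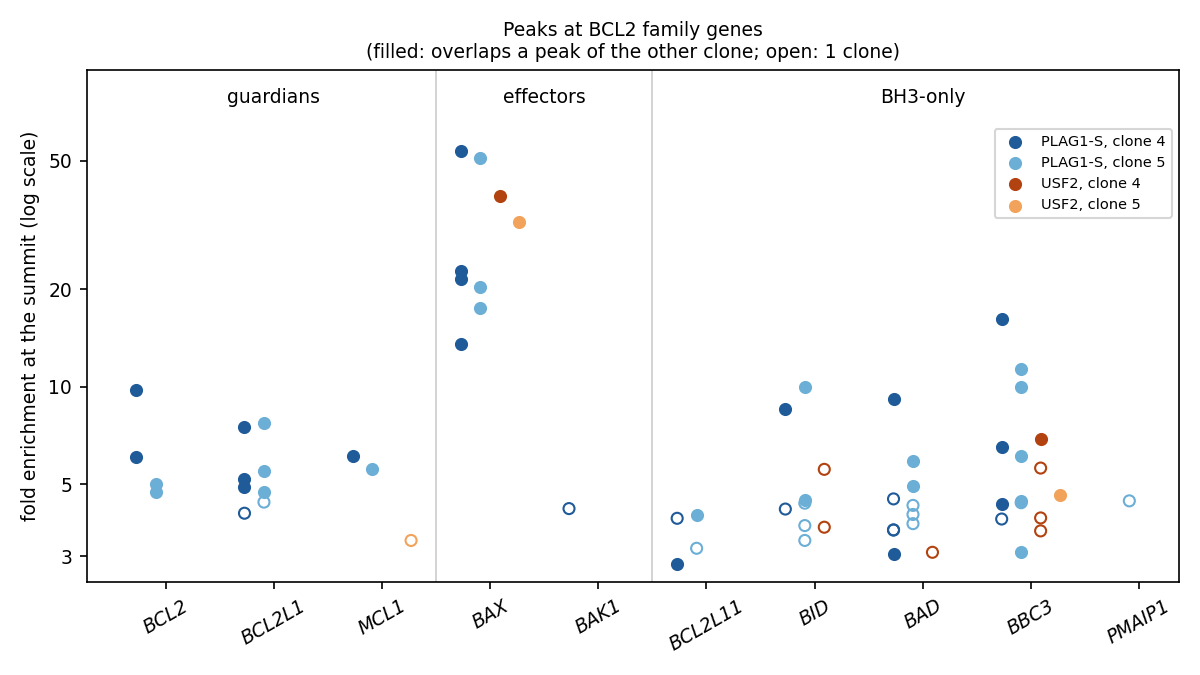
Fold enrichment at the summit (log scale) of each of the 65 peaks at the 10 members, by gene and by role, with colours for factor and clone; filled points were found in both clones and open points in 1. The 4 peaks at the BAX start lie between 32.2 and 53.5, and no peak at another member exceeds 16.1.

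Of the effectors, BAX carried the highest enrichment of the family in all 4 lists. The fold enrichment given here is the ratio of fragments over the peak summit to the local background, each with 1 added. That background is the value set in the peak call against the merged inputs. At the BAX start the PLAG1-S fold was 53.5 in clone 4 and 51.0 in clone 5. The USF2 fold at the same place was 38.9 in clone 4 and 32.2 in clone 5. Ordered by fold, these were the 11th of 37574 and the 8th of 29889 PLAG1-S peaks, and the 11th of 9338 and the 10th of 4369 USF2 peaks.

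The fragments behind these folds were counted back from the deposited fold and p-value. The BAX start had 258 PLAG1-S fragments over the summit in clone 4 (95% Poisson interval 227 to 291) and 228 in clone 5 (199 to 260). USF2 gave 191 fragments in clone 4 (165 to 220) and 153 in clone 5 (130 to 179). The intervals of the 2 clones overlap for each factor, and they cover counting error only. The local background was 3.84 and 3.49 fragments for PLAG1-S and 3.93 and 3.78 for USF2, close to the medians of the lists, which lay between 3.41 and 3.78.

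The summits of both factors fell into a narrow stretch upstream of the BAX start, at position 48954875 of chromosome 19. The PLAG1-S summits lay 51 bp (clone 4) and 64 bp (clone 5) upstream of it, and the USF2 summits 37 and 33 bp upstream. The PLAG1-S and USF2 summits were thus 14 bp apart in clone 4 and 31 bp apart in clone 5. The peaks themselves spanned chr19:48954503-48955355 and chr19:48954483-48955132 for PLAG1-S, and chr19:48954571-48955253 and chr19:48954627-48955055 for USF2.

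All 4 E-boxes in the BAX sequence shown above lay inside all 4 of these peaks. Their first bases are 138, 93, 45 and 14 bases before the start. The E-box at -45 (chr19:48954830-48954835) was the nearest to each summit, with distances of 8 and 21 bp from the PLAG1-S summits and 5 and 9 bp from the USF2 summits. For PLAG1, the letters GAGGC or GGGGC followed after 6 to 8 bases by GGG were searched on both strands. Matches may overlap each other. This PLAG motif occurred once in the BAX window, at position +31, where the start is +1.

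Few promoters hold as many E-boxes as BAX. Of 35116 RefSeq promoter windows of 300 bases, 2548 (7.26%) held at least 1 E-box, 233 (0.664%) at least 2, 33 (0.0940%) at least 3, and 5 (0.0142%) at least 4. The PLAG motif was far more frequent, with at least 1 match in 32.2% of windows. Over distinct windows on the chromosomes used, the share under a reproducible USF2 peak was 1.33% of 32409 windows without an E-box, 29.2% of 2295 with 1, 64.1% of 198 with 2, and 75.8% of 33 with 3 or more. The share under a reproducible PLAG1-S peak was 19.0%, 59.5%, 74.7% and 81.8% in the same order. These shares describe the windows and were not tested, and windows of 1 gene can overlap.

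**Figure D2:**
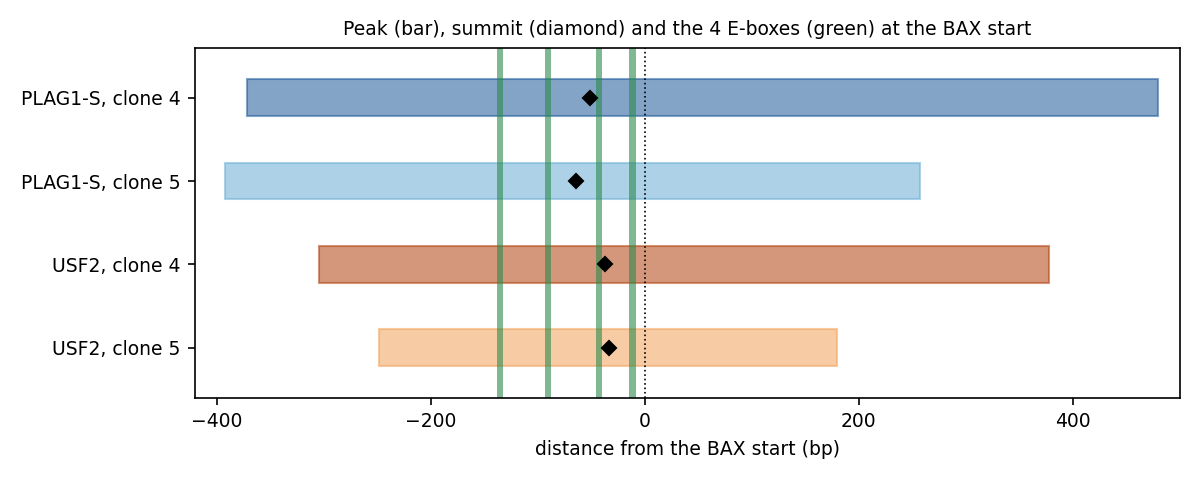
Peaks (bars) and their summits (diamonds) at the BAX start in the 4 lists, by distance from the annotated start in bp, with the 4 E-boxes as green bands and the start as a dotted line. All 4 summits lie between 64 and 33 bp upstream of the start, within 21 bp of the E-box at -45.

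Downstream of BAX, 3 further reproducible PLAG1-S peaks fell within 3 kb of the gene's end. All of them lay nearer to FTL, which encodes the ferritin light chain, than to the BAX start. The first of them, however, lay nearer to the end of BAX than to FTL. The peak at chr19:48962105-48962794 had a fold of 22.7 in clone 4 and 20.3 in clone 5, with 96 and 81 summit fragments. That at chr19:48963404-48964152 had folds of 21.5 and 17.5, with 103 and 79 fragments. No USF2 peak was listed within 100 bp of either, in clone 4 or clone 5.

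The last of the 3, chr19:48964757-48965500, had its clone 4 summit 202 bp from the nearest start or end of FTL. Its fold was 13.6 in clone 4, and the overlapping clone 5 peak, at 11.4, lay beyond the 3 kb limit. This peak was counted as co-bound through a USF2 peak at chr19:48965410-48965834, outside the BAX window, with a USF2 fold of 5.11 in clone 4 and 6.63 in clone 5. Its summit was 600 bp from that USF2 summit in clone 4. A second USF2 peak of clone 4, chr19:48964954-48965253, had its summit 31 bp away, with a fold of 4.13 and 19 fragments, but was not found in clone 5. The count of 2 co-bound peaks at BAX therefore holds 1 that is nearer to FTL.

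BAK1, the other effector, had a single peak in its body or within 3 kb. With a window of 10 kb a reproducible PLAG1-S peak was also found for BAK1, beyond the 3 kb limit. It was a PLAG1-S peak of clone 4 at chr6:33573556-33573714, 6625 bp downstream of the start, with a fold of 4.21 and 20 summit fragments (12.2 to 30.9). Within 3 kb of BAK1 neither clone had a USF2 peak, and clone 5 had no PLAG1-S peak. The single clone 4 peak is the one given above. The BAK1 window shown above held neither the E-box nor the PLAG motif.

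**Figure D3:**
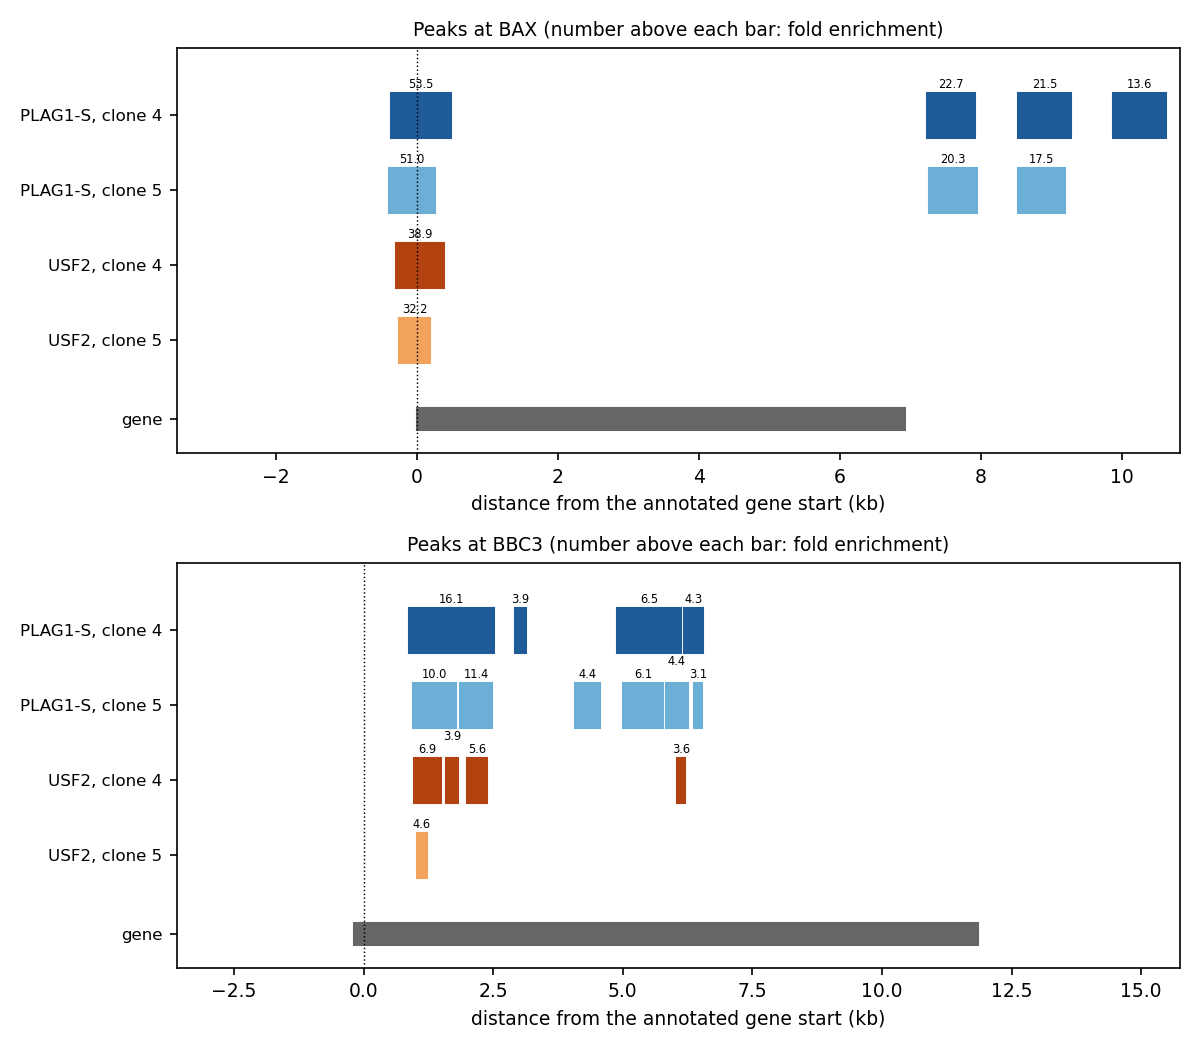
Peaks at BAX (top) and BBC3 (bottom) in the 4 lists, by distance from the annotated gene start in kb along the direction of transcription; bars span the peaks, the number above each is its fold, and the grey bar is the gene body. At BAX the 4 lists share the peak at the start, and at BBC3 they share a peak whose summits lie about 1 kb inside the gene.

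Among the BH3-only genes, BBC3 was the 1 with peaks of both factors in both clones. It encodes PUMA, which is induced by p53 and can engage all the guardians. The PLAG1-S peak of clone 4 was wide, spanning chr19:47230158-47231793, with its summit 1088 bp downstream of the annotated start. It had a fold of 16.1 and 73 summit fragments (57.2 to 91.8), and ranked 1859 of 37574 by fold. In clone 5 the same stretch was divided into 2 peaks, chr19:47230182-47230816 with a fold of 11.4 and chr19:47230881-47231719 with a fold of 10.0. The clone 5 peak at the clone 4 summit had 41 fragments (29.4 to 55.6), so that the intervals of the clones did not overlap at this summit.

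The USF2 fold at BBC3 was lower than that of PLAG1-S in both clones, as it was at the BAX start. The 2 factors were pulled down with different antibodies, so that their folds do not compare amounts of binding. In clone 4 the USF2 peak at chr19:47231174-47231704 had a fold of 6.88 with 30 fragments, and in clone 5 the peak at chr19:47231452-47231639 had a fold of 4.64 with 19 fragments. Their summits lay 15 bp (clone 4) and 4 bp (clone 5) from the nearest PLAG1-S summit of the same clone. By fold they ranked 1331 of 9338 and 1980 of 4369. Clone 4 had 3 further USF2 peaks in the gene, with folds of 5.61, 3.94 and 3.59, and none of them overlapped a clone 5 peak. With a −log10 q of at least 10, or with 50% reciprocal overlap between the clones, the USF2 peak of BBC3 was no longer reproducible, and BAX was the 1 member left for USF2. The E-box of BBC3 printed above lay 1302 bp or more from the nearest summit of each list, and was inside none of the peaks.

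A second group of PLAG1-S peaks was found further inside BBC3. The clone 4 peak at chr19:47226552-47227778 had a fold of 6.52, and the clone 5 peak with the nearest summit a fold of 6.13. Next to it, chr19:47226127-47226489 had a fold of 4.35, against 3.10 in clone 5. A clone 5 peak with a fold of 4.44 overlapped both. The remaining PLAG1-S peaks of the gene were seen in 1 clone only, with a fold of 3.91 in clone 4 and 4.39 in clone 5.

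BID, which is cut by caspase-8 and links death receptors to the mitochondrion, had peaks of both factors at its start, but the USF2 peak was listed in clone 4 only. PLAG1-S gave a fold of 8.57 with 39 fragments at chr22:17773833-17774577 in clone 4. In clone 5 it gave 9.97 with 43 fragments at chr22:17773909-17774358, and 4.48 at a second peak beside it. The clone 4 USF2 peak, chr22:17773982-17774213, had a fold of 5.56, 25 fragments (16.2 to 36.9) and a −log10 q of 9.48. Its summit was 42 bp from the PLAG1-S summit.

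The E-box of BID printed above, at chr22:17774084-17774089, was close to these summits. It lay 35 and 15 bp from the PLAG1-S summits of clones 4 and 5 and 6 bp from the USF2 summit of clone 4. It stands 47 bases before the start that is nearest to that USF2 summit, 1 of 5 annotated starts. That window also had a PLAG motif 16 bases before the start, and the overlapping windows of 2 starts further upstream held the same 4 PLAG motifs. Elsewhere in BID, each peak was seen in 1 clone only. These were a PLAG1-S peak of fold 4.19 and a USF2 peak of fold 3.68 in clone 4, and PLAG1-S peaks of folds 3.73, 4.37 and 3.35 in clone 5. Those of folds 4.19, 3.68 and 3.73 lay nearer to BCL2L13 than to a start of BID, but nearer still to the downstream end of BID.

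BAD, a BH3-only protein that survival kinases silence by phosphorylation, had most of its peaks nearer to neighbouring genes than to its own start. The reproducible PLAG1-S peak at chr11:64268108-64268465 had a fold of 9.17 (40 fragments) in clone 4 and 4.93 (20 fragments) in clone 5, and its clone 4 summit lay 1151 bp from the nearest start or end of PLCB3. The other, chr11:64270379-64270550, had folds of 3.04 (20 fragments) and 5.92 (32 fragments), and lay 127 bp from GPR137. The order of the clones thus differed between the peaks. At the BAD start itself a PLAG1-S peak with a fold of 3.61 was listed in clone 4 (chr11:64284602-64284771), 53 bp upstream. At the downstream end of the gene clone 4 had another peak of fold 3.61, nearer to PLCB3, with its summit just outside the gene body. Inside the gene clone 4 had a peak of fold 4.51, nearer to GPR137. Neither was seen in clone 5. Clone 5 had 3 PLAG1-S peaks upstream of the start, with folds of 3.78, 4.30 and 4.03, all nearer to GPR137. The only USF2 peak, in clone 4, had a fold of 3.08 and lay 118 bp from PLCB3. The overlapping windows of the 2 BAD starts held the same 3 PLAG motifs, of which some overlap each other, and no E-box.

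BCL2L11 encodes BIM, which binds all the guardians, and had weak PLAG1-S peaks and no USF2 peak. The reproducible one, chr2:111122652-111122898, had a fold of 2.83 in clone 4 and 4.01 in clone 5, with 17 fragments in each. The same number of fragments gave different folds because the local background was 5.37 in clone 4 and 3.49 in clone 5. Nearer to the start, a peak 339 bp upstream had a fold of 3.93 in clone 4, and 1 lying 918 bp downstream had a fold of 3.17 in clone 5. PMAIP1 encodes NOXA, which targets MCL1, and had a single peak, of PLAG1-S in clone 5. It spanned chr18:59900130-59900321, with its summit 270 bp downstream of the start, a fold of 4.44 and 15 fragments (8.40 to 24.7). The windows of BCL2L11 and PMAIP1 held 1 and 2 PLAG motifs.

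All 3 guardians had a reproducible PLAG1-S peak near a start or, for MCL1, near an end of the gene, and none had a reproducible USF2 peak. Of all protein-coding genes, 40.5% had such a PLAG1-S peak within 1 kb and 10.3% a reproducible USF2 peak within 3 kb. The 3 guardians are too few to be read against these shares. With a −log10 q of at least 10, BCL2 among the guardians, and BCL2L11 and BAD among the BH3-only genes, no longer had a reproducible PLAG1-S peak, which left 5 members. The share of all protein-coding genes at this cut was not computed. At BCL2L1, which encodes BCL-xL, the guardian that erythroid cells depend on, the start peak at chr20:31723296-31723923 had a fold of 7.49 in clone 4 (41 fragments) and 7.76 in clone 5 (40 fragments). Within the gene, the peak at chr20:31706799-31707019 had folds of 4.91 and 4.73, and that at chr20:31708649-31708931 had folds of 5.19 and 5.48. At each of the 3 peaks the Poisson intervals of the clones overlapped. A flanking peak (fold 4.07, clone 4) and a second start peak (fold 4.40, clone 5) were each seen in 1 clone. The flanking peak lay nearer to COX4I2 than to a start of BCL2L1, but nearer still to the downstream end of BCL2L1.

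MCL1 encodes a short-lived guardian, and had a PLAG1-S peak close to an end of the gene. The peak, chr1:150579179-150579544 in clone 4, had a fold of 6.13 with 36 fragments, and its clone 5 counterpart had 5.59 with 33 fragments. The summits lay 192 and 206 bp inside the nearer end of the gene. A USF2 peak overlapped it in clone 5 (chr1:150579070-150579280), with a fold of 3.35 and 20 fragments, and its summit was 256 bp from that of PLAG1-S. Clone 4 had no USF2 peak at MCL1.

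BCL2, the founding guardian, had 2 reproducible PLAG1-S peaks. That at chr18:63320219-63320572, 672 bp upstream of the start, had a fold of 6.06 in clone 4 (22 fragments) and 5.00 in clone 5 (17 fragments). The other lay deep in the gene, 157786 bp downstream of the start, at chr18:63161831-63162141. It had a fold of 9.75 in clone 4, with 36 fragments (25.2 to 49.8), and 4.72 in clone 5, with 16 fragments (9.15 to 26.0). This was the largest ratio between clones at a member, 2.06, although the intervals overlap narrowly. At both sites the local background was at the lowest value of its list, 2.80 in clone 4 and 2.60 in clone 5. The BCL2 and BCL2L1 windows held neither motif.

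USF2 peaks at the members mostly lay beside PLAG1-S peaks of the same clone. A PLAG1-S peak stood within 100 bp of 7 of the 8 in clone 4 and of all 3 in clone 5. The 1 exception was the peak of fold 3.68 inside BID. Over the whole lists the shares were 59.9% of USF2 peaks in clone 4 and 62.5% in clone 5. The 11 USF2 peaks fall on 5 genes, with 5 of them at BBC3, so that they are not independent of each other.

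Over all member peaks the median fold lay slightly below that of the lists for PLAG1-S and above it for USF2. The medians rest on 25 and 29 PLAG1-S peaks in clones 4 and 5, but on only 8 and 3 USF2 peaks. The differences were not tested. The median PLAG1-S fold over all member peaks was 5.19 in clone 4 and 4.72 in clone 5, against 5.21 and 5.00 for the whole lists. For USF2 it was 4.75 and 4.64, against 4.21 and 4.49. With the BAX peaks left out, the medians were 4.51 and 4.46 for PLAG1-S (21 and 26 peaks) and 3.94 and 3.99 for USF2 (7 and 2 peaks), each below its list's median. The highest fold left was then 16.1, 11.4, 6.88 and 4.64 in the same order, all of them at BBC3. BAX held the family's highest folds while the lists kept theirs, so that the lower medians without it are partly built in.

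Among the clone 4 peaks, the share found again in clone 5 differed between the factors, in the whole lists as at the members. For PLAG1-S, 17 of the 25 peaks of clone 4 were found again in clone 5, against 57.1% of all clone 4 PLAG1-S peaks. For USF2 it was 2 of the 8, against 25.8% of all clone 4 USF2 peaks. The USF2 list is shorter in clone 5, with 4369 peaks against 9338. In the other direction, 19 of the 29 PLAG1-S peaks and 2 of the 3 USF2 peaks of clone 5 were found again in clone 4. The difference between the factors at the members was thus not seen in that direction, and the shares of all clone 5 peaks were not computed. A −log10 q of at least 10 was reached by 12 of 25 and 10 of 29 PLAG1-S peaks at the members in clones 4 and 5, against 45.8% and 38% of all PLAG1-S peaks. For USF2 it was reached by 2 of 8 and 1 of 3, against 22.2% and 27.9% of all USF2 peaks.

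Over the 17 reproducible PLAG1-S peaks the fold was higher in clone 4 at 12, with a median ratio of clone 4 to clone 5 of 1.10. The ratios ranged from 0.514 at BAD to 2.06 at BCL2. Over all 21469 reproducible PLAG1-S peaks the median ratio was 1.13, and 66.8% were higher in clone 4. The Poisson intervals of the summit fragments overlapped between the clones at 16 of the 17 peaks, and the exception was BBC3.

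**Figure D4:**
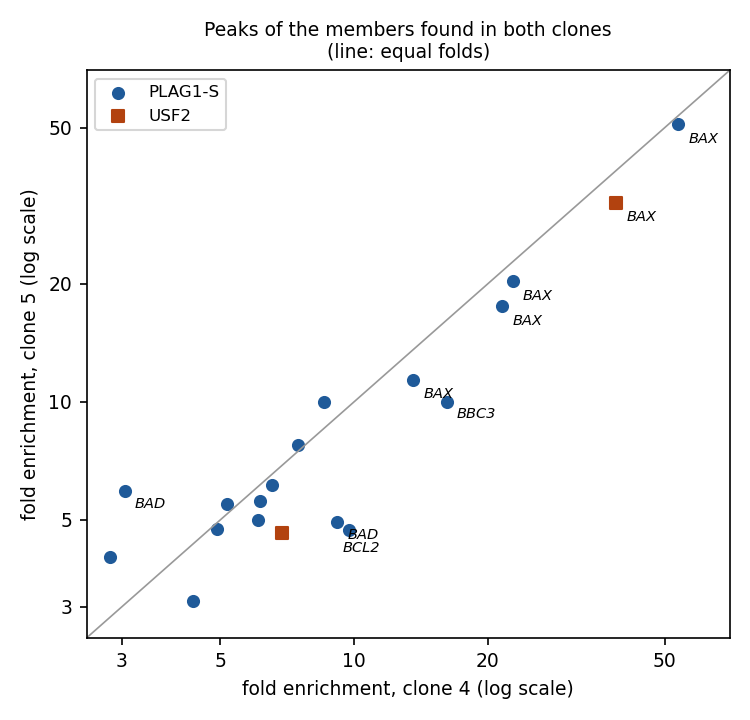
Fold enrichment in clone 4 (x axis) against clone 5 (y axis), both on log scales, for the 17 reproducible PLAG1-S peaks and the 2 reproducible USF2 peaks at the members; the line marks equal folds. The BAX peaks lie highest in both clones, and the points farthest from the line are at BAD and BCL2.

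Other genes of the apoptotic machinery were counted by the same rule, in 6 lists of 40 genes in all. A reproducible PLAG1-S peak was found at 29 of the 40, and a reproducible USF2 peak at 5, each of which was co-bound. Over all protein-coding genes the shares were 52% for PLAG1-S, 10.3% for USF2 and 9.98% for co-binding, and the single lists are too small to be read against them. Among 11 further BCL2 family genes, 7 had a PLAG1-S peak and 2 were co-bound. Of 7 genes of the apoptosome and caspases, 5 had a PLAG1-S peak and 1 was co-bound, and of 3 partners at the outer membrane the numbers were 2 and 1. All 4 kinases and chaperones that act on BH3-only proteins had a PLAG1-S peak, and 1 was co-bound. The 6 inhibitors of apoptosis and their antagonists had 5 with a PLAG1-S peak, and the 9 death receptor genes had 6, with no reproducible USF2 peak in either list.

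At their co-bound peaks the 5 genes had lower folds than the BAX start in every list. BCL2L13, a mitochondrial member of the wider family, had the highest, with PLAG1-S folds of 30.4 and 20.5 and USF2 folds of 16.1 and 8.72 in clones 4 and 5 (chr22:17628391-17629190). The summit was 80 bp from BCL2L13 and 25 bp from ATP6V1E1, counted to the nearest start or end of each. BNIP3L, which encodes a mitophagy receptor, had PLAG1-S folds of 11.8 and 9.57 and USF2 folds of 5.88 and 5.68 (chr8:26382696-26383502).

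CASP9, the initiator caspase of the apoptosome, had PLAG1-S folds of 20.9 and 15.8 and USF2 folds of 8.31 and 5.52 (chr1:15526545-15527183). That summit was 19 bp from DNAJC16 and 1917 bp from CASP9. VDAC1, an ion channel of the outer membrane, had PLAG1-S folds of 20.8 and 11.3 and USF2 folds of 6.84 and 6.09 (chr5:134007935-134008282). MAPK8, which encodes the kinase JNK1, had PLAG1-S folds of 21.1 and 13.8 and USF2 folds of 10.4 and 4.81 (chr10:48306111-48306852). At all 5 genes both factors had the higher fold in clone 4, as they did at the BAX start and at the co-bound peak of BBC3. The co-bound peak near FTL differed. There PLAG1-S was higher in clone 4 (13.6 against 11.4), but the USF2 peak found in both clones was higher in clone 5 (6.63 against 5.11). Over all reproducible PLAG1-S peaks 66.8% were higher in clone 4, and the share for USF2 was not computed.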

How the data were processed

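ChIP-seq peaks of PLAG1-S and USF2 in 2 K562 clones were analysed. Per the labels' processing notes, the authors used FastQC, cutadapt, HISAT2 2.0.4, SAMtools, MACS2, bedtools and HOMER with hg38. They called each immunoprecipitated library alone against the merged inputs, which all 4 lists share. The inputs are not analysed here as files of their own.

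The fold deposited by the authors is a ratio at the summit to the local background. The deposited −log10 p and −log10 q come from the MACS2 Poisson model, and the deposited score is 10 times the −log10 q, rounded down, for 99.9893% of peaks or more. The PLAG1-S lists reach a q-value of 0.0099 at most and the USF2 lists 0.0494, so that the lists of the factors were cut differently.

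Whole summit fragments and the local background were solved from the fold and −log10 p, accepted within 0.001, with exact Poisson 95% intervals (counting error only). All peaks were recovered, with 11 fragments or more, as were 100% of 977 summits simulated with known numbers. PCR duplicates and alignment filters can change these numbers.

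Where several clone 5 peaks overlapped a clone 4 peak, the nearest summit was compared. Genes come from RefSeq on GRCh38.p14. Genes without a promoter window, among them MCL1, were measured from either gene end, without strand. Motifs were searched in promoter windows only, and a genome sequence was not used here. The members and lists were chosen with earlier results of these data known. All members are named, other apoptosis genes only with a reproducible USF2 peak, and a neighbouring gene where its end is nearer to a described summit than the member's start. Libraries of the same clone come from the same cells, which pairs PLAG1-S with USF2. Python 3.11.15, numpy 2.4.6, pandas 2.3.3, scipy 1.17.1 and matplotlib 3.10.9 were used.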

Additional observations from a re-analysis of the deposited data

How the results depend on the processing

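The 5 counts of members and peaks were recomputed under 13 settings, which gave 49 values, of which 26 were within 1.5 times the reported count and 23 were not. A −log10 q of at least 10 left 5 members with a reproducible PLAG1-S peak (9 peaks), without BCL2, BCL2L11 and BAD, and 1 member, BAX, with a USF2 peak (1 peak) and co-bound. Asking for 50% reciprocal overlap between clones left 1 USF2 peak and 1 co-bound member, again BAX, since BBC3 was lost. The union of the clones raised the USF2 and co-bound members to 5 each, and the peaks to 35 for PLAG1-S and 9 for USF2. A window of 10 kb gave 4 USF2 peaks and 22 PLAG1-S peaks, and added BAK1 to the members with a reproducible PLAG1-S peak, which were then 9. Without BAX, an alternative chosen after seeing the data, 1 USF2 and 1 co-bound member remained. For the q cut, the reciprocal overlap, the union and the 10 kb window, the shares of all protein-coding genes were not computed. The counts under these settings cannot be set against the shares given for the main rule.

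Leaving out 1 clone, so that each peak of the other counts, gave 9 to 9 members for PLAG1-S, 3 to 4 for USF2 and 3 to 4 co-bound, with 25 to 29 PLAG1-S and 3 to 8 USF2 peaks. The 4 USF2 members without clone 5 were BAX, BID, BAD and BBC3, and the 3 without clone 4 were MCL1, BAX and BBC3. With the clone as replicate block, the mean of the values within clones was 9 members for PLAG1-S, 3.5 for USF2 and 3.5 co-bound, with 27 PLAG1-S and 5.5 USF2 peaks. No reported value here comes from a test, so that no call could be lost under the pairing. The thinnest member peak rests on 14 summit fragments, and at this depth a peak listed in 1 clone only does not show that the other clone lacked binding.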
